A study of Homo sapiens with 6 samples.

Results

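The mitochondrial ribosomal protein genes were followed through a comparison of SW480 cells, an established human colorectal cancer line, with and without knockdown of MORC2, a nuclear ATPase that binds chromatin. The members were all genes of the deposited count table whose symbol was MRPL or MRPS followed by a number and, for some, a letter from A to C. There were 78 such genes among 56303 in the table, and all 78 had counts in every library. The 3 shCtrl libraries came from cells infected with a lentivirus carrying a nonsilencing short hairpin RNA, labelled WT, and the 3 shMORC2 libraries from cells infected with a lentivirus carrying a hairpin against MORC2, labelled MORC2 knockdown. Both groups were SW480 lines made stable by puromycin selection, which the methods call clonal, so that a difference between clones and an effect of the hairpin cannot be told apart.

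The mitochondrial ribosome, or mitoribosome, translates the few messenger RNAs that the mitochondrial genome encodes, all of them for membrane subunits of the respiratory chain and the ATP synthase. Its ribosomal RNAs are made inside the organelle, whereas all of its proteins are encoded in the nucleus, made in the cytosol and imported. The MRPL genes encode proteins of the large subunit, which forms peptide bonds, and the MRPS genes proteins of the small subunit, which reads the messenger RNA. Some of these proteins have counterparts in the bacterial ribosome and others were added in the mitochondrial lineage.

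The libraries held 42092664 to 43434425 counts each, and genes of the mitochondrial genome made up 7.04% to 8.90% of them. MORC2 itself averaged 47.1 ± 1.46 CPM in the 3 shCtrl libraries and 30.5 ± 4.07 CPM in the 3 shMORC2 libraries (mean ± SD), where CPM scales the counts to a common library size with TMM. The fitted log2 fold change of -0.63 ± 0.10 (SE) passed the test (edgeR adjusted p 0.000216), and an antisense gene overlaps MORC2. All group values below are means ± SD over 3 libraries. All 8 markers of colorectal epithelium that were looked up were detected, and all 4 leukocyte markers stayed below 1 CPM. The 8 epithelial markers summed to 20126 to 26164 CPM in shCtrl and 19160.4 to 26039.5 CPM in shMORC2, so the groups overlapped. The 4 markers of fibroblasts, 2 of them below 1 CPM in every library, summed to 18.1 to 19.2 CPM in shCtrl and 20.7 to 22.8 CPM in shMORC2. The 3 markers of endothelium, 1 of them below 1 CPM throughout, summed to 15.6 to 19.6 and 20.6 to 22.2 CPM. The sums for fibroblasts and endothelium were thus higher in every shMORC2 library, and their part in any result was not tested.

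To learn whether the mitoribosomal protein genes moved together, each gene was tested with edgeR's quasi-likelihood test, and a gene was called when its Benjamini-Hochberg adjusted p over all 21005 genes tested was under 0.05. The members that passed the test went in both directions. Of the 78 members, 24 were called higher in shMORC2, 7 were called lower and 47 were not called. Over all genes tested, 39.5% were called, 19.9% higher and 19.6% lower. The members' share of calls, 39.7%, was close to this background in the fit without a replicate block, with 30.8% of the members higher and 8.97% lower. The largest changes were those of MRPL33, which rose, and MRPL4, which fell.

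The fitted log2 fold changes of the members ran from -0.61 to 0.97, with a median of 0.06 beside -0.01 over all genes tested. Of the 78 members, 45 had a positive value and 33 a negative one. A CPM value is a share of a library's RNA, and in bulk samples fewer cells of a kind and less RNA per cell cannot be told apart. The 3 shMORC2 values lay wholly above or wholly below the 3 shCtrl values for 41 members, 28 above and 13 below, where 50.2% of all genes tested did not overlap. MRPL1 was the 1 called member whose groups overlapped.

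**Figure D1:**
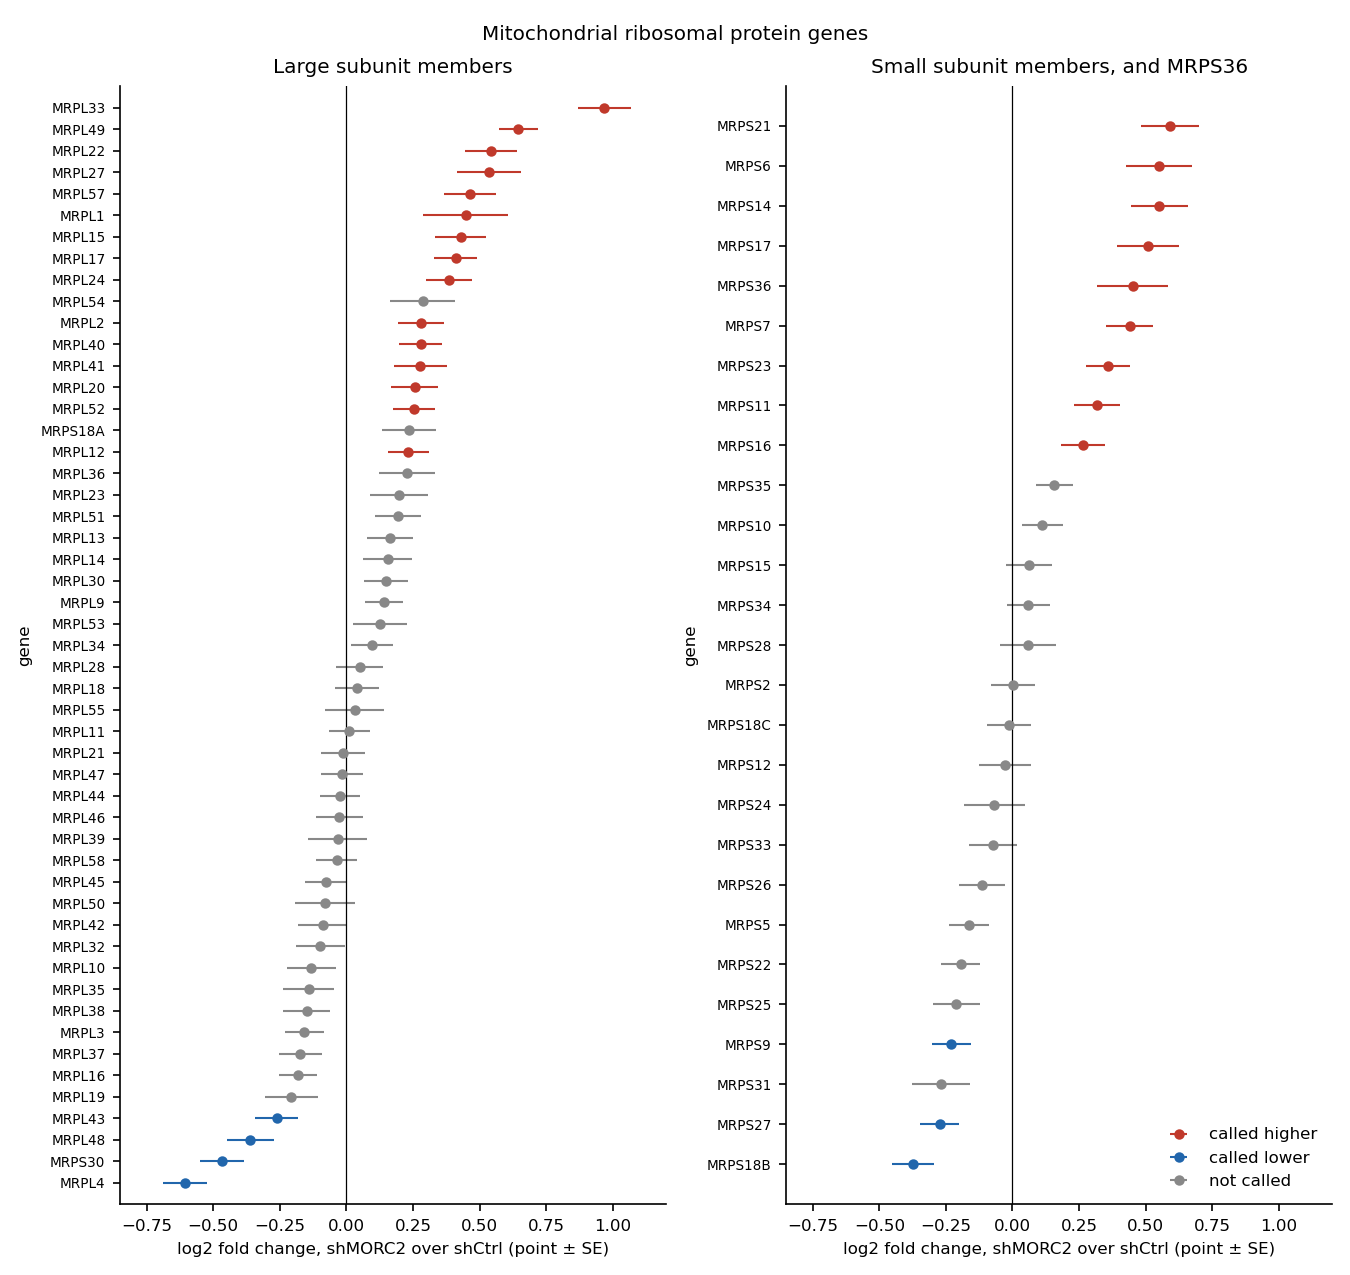
Fitted log2 fold change of shMORC2 over shCtrl with its standard error for each of the 78 members, large subunit members on the left and small subunit members with MRPS36 on the right, coloured by the call. Values run from -0.61 for MRPL4 to 0.97 for MRPL33, and members that were not called fill the middle of both columns.

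Summed over the 78 members, the level was 3899, 3634 and 3999 CPM in the 3 shCtrl libraries and 3831, 4061 and 4151 CPM in the 3 shMORC2 libraries. The groups overlapped, with means of 3844 ± 189 and 4014 ± 165 CPM and a log2 ratio of 0.06. Per library, 0.365% to 0.410% of all counts fell on the members. The large subunit summed to 2125 ± 105 and 2215 ± 95.4 CPM, and the small subunit to 1711 ± 82.5 and 1790 ± 71.02 CPM.

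Single libraries weighed on the number of members called higher. shCtrl replicate 2 was the lowest shCtrl library for 60 of 78 members, and for 20 of the 24 called higher. shMORC2 replicate 3 was the highest shMORC2 library for 42 of 78 members, and for 16 of those 24. Without shCtrl replicate 2 the number called higher was 14, with 23 members and 29.8% of all genes called. Without shMORC2 replicate 3 it was 15, with 20 members and 29.0% of all genes called. With the replicate number as a block, 45 members were called, 29 higher and 16 lower. That was 57.7% of the members, 37.2% higher and 20.5% lower, against 49% of all genes tested, 24.4% higher and 24.5% lower. All 31 members called without the block were called in the same direction with it, and 19 of the 31 were called in each of the 6 fits that left out 1 library, 14 of them higher and 5 lower. The 12 that lost the call in at least 1 of these fits were MRPS36, MRPL1, MRPS11, MRPL2, MRPL40, MRPL41, MRPS16, MRPL20, MRPL52, MRPL12, MRPS9 and MRPL43. What share of all called genes kept the call in each of the 6 fits was not counted.

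The 51 members of the large subunit were 49 MRPL genes with MRPS18A and MRPS30, whose proteins later structures placed there. Of these 51, 15 were called higher, 4 lower and 32 not, with a median log2 fold change of 0.10. Without shMORC2 replicate 3, 11 of the 51 were called, and with the block 19 were called higher and 9 lower. MRPL33, the counterpart of bacterial L33, had 14.1, 12.8 and 15.4 CPM in shCtrl and 25.1, 28.6 and 29.2 CPM in shMORC2. Every shMORC2 library lay above every shCtrl library, and the mean rose from 14.1 ± 1.33 to 27.6 ± 2.21 CPM, a log2 fold change of 0.97 ± 0.10 (SE, adjusted p 9.91e-06 in edgeR). The gene (chromosome 2, 27771717 to 27988087, plus strand, GRCh38) overlaps exons of BRE on the same strand, so reads from the shared stretches are uncertain.

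MRPL49, a large subunit protein without a bacterial counterpart, had 45.3, 42.5 and 44.5 CPM in shCtrl and 67.4, 69.0 and 70.8 CPM in shMORC2. The gap between the groups was many times the spread within them, with means of 44.1 ± 1.43 and 69.0 ± 1.72 CPM and a log2 fold change of 0.65 ± 0.07 (SE, adjusted p 2.11e-05 in edgeR). The gene (chromosome 11, 65122183 to 65127371, plus strand) overlaps exons of FAU and SYVN1 on the other strand. MRPL22, whose bacterial counterpart lines the exit tunnel of the nascent chain, rose from 21.5 ± 2.09 to 31.3 ± 2.58 CPM, a log2 fold change of 0.54 (edgeR adjusted p 0.000675). MRPL27, whose bacterial counterpart reaches towards the site of peptide bond formation, rose from 22.7 ± 4.45 to 32.8 ± 1.95 CPM, also with a log2 fold change of 0.54 (edgeR adjusted p 0.00365). MRPL57, a short protein of the mitochondrial lineage, rose from 10.5 ± 0.437 to 14.5 ± 0.769 CPM. The other members of the large subunit that rose had log2 fold changes of 0.23 to 0.45 and were MRPL1, MRPL15, MRPL17, MRPL24, MRPL2, MRPL40, MRPL41, MRPL20, MRPL52 and MRPL12.

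In the other direction, MRPL4, the counterpart of the bacterial protein L4, whose extension reaches into the exit tunnel, had 118.7, 109.0 and 123.7 CPM in shCtrl and 70.7, 77.5 and 82.4 CPM in shMORC2. No shMORC2 library reached the lowest shCtrl library. The mean went from 117 ± 7.50 to 76.9 ± 5.87 CPM and fell by 0.61 in log2 units (SE 0.08, adjusted p 9.12e-05 in edgeR), the only member called lower with a change of at least 0.5 in size. MRPL4 (chromosome 19, 10251901 to 10260045, plus strand) overlaps exons of genes on the other strand. MRPS30, a large subunit protein despite its symbol, had 35.6, 40.2 and 35.6 CPM in shCtrl and 25.9, 28.1 and 26.5 CPM in shMORC2. Its groups did not overlap either, and the level fell by 27.7%, a log2 fold change of -0.47 ± 0.08 (SE, adjusted p 0.000691 in edgeR). MRPL48, of the central protuberance, fell from 50.8 ± 4.67 to 39.6 ± 2.56 CPM (log2 fold change -0.36, edgeR adjusted p 0.00568).

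The remaining large subunit member called lower, MRPL43, stood at 40.4 ± 2.08 and 33.7 ± 2.08 CPM, and its log2 fold change of -0.26 (edgeR adjusted p 0.0215) lost the call when shCtrl replicate 3 (-0.22), shMORC2 replicate 1 (-0.21) or shMORC2 replicate 3 (-0.26) was left out. MRPL12, the stalk protein through which ribosomes engage translation factors, stood at 107 ± 4.62 and 126 ± 8.62 CPM. Its log2 fold change of 0.23 (edgeR adjusted p 0.0291) likewise lost the call without shCtrl replicate 2 (0.20), shCtrl replicate 3 (0.26), shMORC2 replicate 2 (0.24) or shMORC2 replicate 3 (0.18). MRPL45, which anchors the mitoribosome at the inner membrane, was not called (log2 fold change -0.08, edgeR adjusted p 0.463). MRPS18A, a paralogue of the bacterial S18 family that sits in the large subunit, had a log2 fold change of 0.24 (edgeR adjusted p 0.0784) and was called higher with the replicate block (adjusted p 0.00403), without shMORC2 replicate 1 (0.34, adjusted p 0.00445) and with no filter on low counts (0.23, adjusted p 0.0404).

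**Figure D2:**
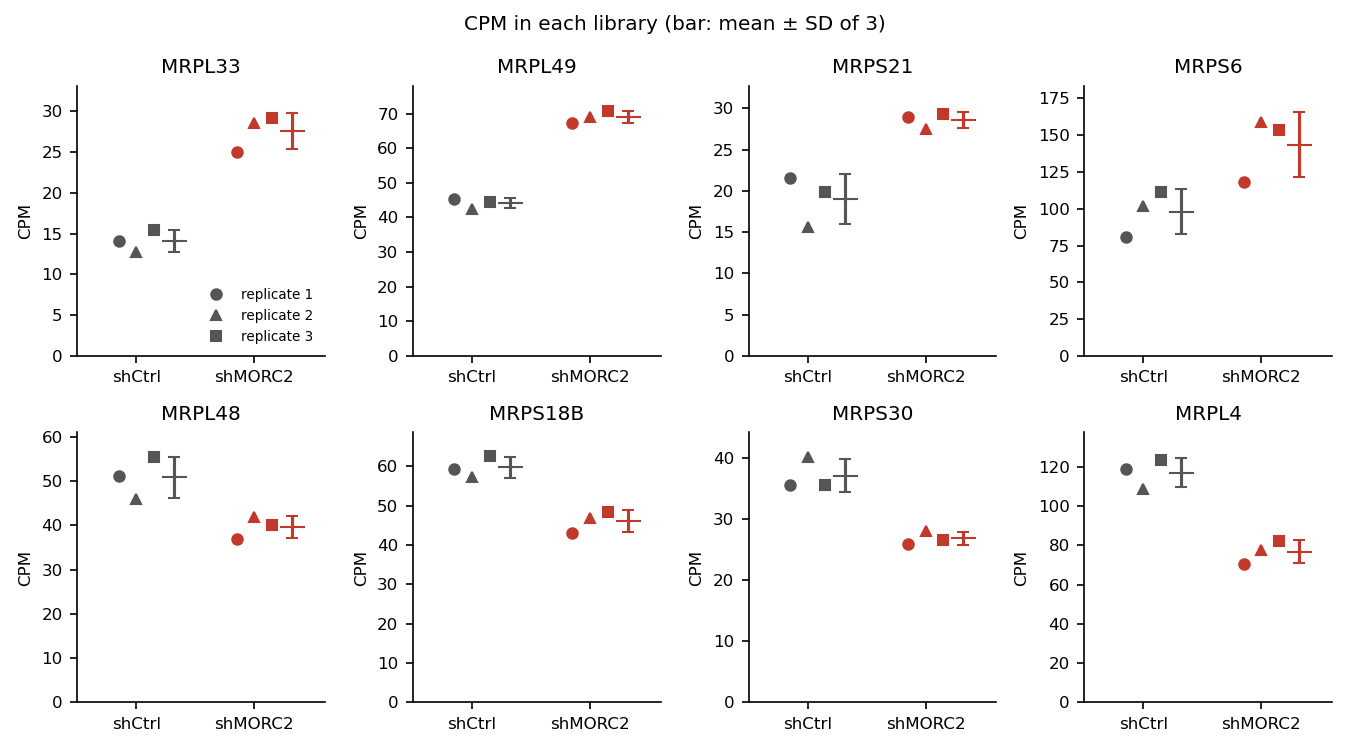
CPM of 8 members in each of the 6 libraries, on axes that start at 0, with the mean and SD of each group as a bar. The upper row holds the 4 called members with the highest log2 fold changes and the lower row the 4 with the lowest, and in all 8 panels the groups lie apart.

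The 26 members of the small subunit gave 8 called higher, 3 called lower and 15 not called, with a median log2 fold change of 0.03. With the block, 9 were called higher and 7 lower. MRPS21, the counterpart of bacterial S21, had 21.5, 15.6 and 19.8 CPM in shCtrl and 29.0, 27.5 and 29.4 CPM in shMORC2. The shCtrl libraries were the more scattered, with means of 19.0 ± 3.06 and 28.6 ± 0.979 CPM and a log2 fold change of 0.59 ± 0.11 (SE, adjusted p 0.000904 in edgeR). MRPS6 had 81.02, 101.5 and 111.4 CPM in shCtrl and 118.5, 159.1 and 153.2 CPM in shMORC2. In both groups replicate 1 was the lowest, and the log2 fold change was 0.55 ± 0.12 (SE, adjusted p 0.00335 in edgeR). Exons of MRPS6 overlap those of SLC5A3 on the same strand.

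MRPS14, a counterpart of bacterial S14 in the head of the subunit, rose from 22.0 ± 2.64 to 32.2 ± 3.50 CPM, with exons of CACYBP on the other strand. MRPS17, whose exons overlap GBAS on the same strand, rose from 21.6 ± 4.12 to 30.7 ± 0.294 CPM. Their log2 fold changes were 0.55 (edgeR adjusted p 0.00119) and 0.51 (edgeR adjusted p 0.00398). MRPS7, MRPS23, MRPS11 and MRPS16 rose by 0.26 to 0.44 on the log2 scale. MRPS36, listed here by its symbol, encodes a protein later assigned to the oxoglutarate dehydrogenase complex. It rose from 7.50 ± 1.14 to 10.3 ± 1.25 CPM (log2 fold change 0.45, edgeR adjusted p 0.0169), a call lost without shCtrl replicate 2 (0.36, adjusted p 0.0812).

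All 3 small subunit members that fell, MRPS18B, MRPS27 and MRPS9, had groups that did not overlap. MRPS18B, a paralogue of the S18 family with a place of its own in the small subunit, went from 59.8 ± 2.61 to 46.1 ± 2.72 CPM, a log2 fold change of -0.37 (edgeR adjusted p 0.00210). MRPS27, which carries pentatricopeptide repeats, went from 43.9 ± 0.543 to 36.3 ± 0.796 CPM and has PTCD2 exons on the other strand. Its log2 fold change was -0.27 (edgeR adjusted p 0.00970). MRPS9, the counterpart of bacterial S9, stood at 89.7 ± 2.45 and 76.6 ± 4.0 CPM (log2 fold change -0.23, edgeR adjusted p 0.0248). Its call was lost without shCtrl replicate 1 (-0.21), shCtrl replicate 3 (-0.23), shMORC2 replicate 1 (-0.19) or shMORC2 replicate 3 (-0.23).

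The 3 paralogues of bacterial S18 therefore had different values, -0.37 for MRPS18B, 0.24 for MRPS18A and -0.01 for MRPS18C (edgeR adjusted p 0.917), and MRPS18B was the one that passed the test in the fit to all libraries without the block and with the filter on low counts. MRPS18C takes the place of S18 in the small subunit. MRPS12, the decoding centre protein whose bacterial counterpart is a site of streptomycin resistance, was not called (log2 fold change -0.03, edgeR adjusted p 0.840), and its exons overlap SARS2 on the other strand.

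Grouped by the place of the protein, 45 members took that of a bacterial ribosomal protein and 31 had a place particular to the mitoribosome, with MRPL55 and MRPS36 left out. MRPS18A and MRPS18B, paralogues of S18 at other places, were counted with the 31. Among the 45, 17 were called higher and 2 lower, MRPL4 and MRPS9, with a median log2 fold change of 0.14. Among the 31, 6 were called higher and 5 lower, with a median of -0.04. The difference between these classes was not tested. Without shMORC2 replicate 3, 12 of the 45 were called. With the block, 18 of the 45 were called higher and 6 lower, and 10 of the 31 higher and 10 lower. Of all genes tested, 24.4% were called higher and 24.5% lower in that fit. In the small subunit, 7 of 16 bacterial-type members were higher and 1 lower, beside 1 higher and 2 lower of 10 others.

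Levels were compared between genes as RPKM, the deposited reads scaled to exon length and library total. MRPS34, a protein of the mitochondrial lineage, had the highest mean level over the 6 libraries, 161 ± 10.4 RPKM in shCtrl and 167 ± 11.8 RPKM in shMORC2, with a log2 fold change of 0.06 (edgeR adjusted p 0.596). MRPL12 was next at 105 ± 4.11 and 122 ± 6.69 RPKM, followed by MRPS26 at 76.4 ± 8.67 and 70.1 ± 4.43 RPKM (log2 fold change -0.11, edgeR adjusted p 0.323). MRPL51 had nearly the same mean as MRPS26, with 68.5 ± 7.50 and 77.9 ± 0.304 RPKM, and stood above it in shMORC2. MRPL42 stood lowest at 2.01 ± 0.187 and 1.88 ± 0.144 RPKM, and its annotated exons were the longest of all members, 16393 bases. The members that moved most were not among the most abundant per length, as MRPL33 held place 45 of 78 and MRPL4 place 23.

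Annotated exon length was read for each call. The median was 2408 bases for members called higher and 4070 bases for members called lower, beside 2502 bases for all members. Of the 39 members shorter than that median, 12 were called higher and 2 lower, and of the other 39, 12 were higher and 5 lower. Among all genes tested that were shorter than the members' median, 20.3% were called higher and 12.8% lower, against 19.7% and 23.5% of longer genes. Across the 78 members, the Spearman correlation of length with log2 fold change was -0.28, a description across genes, which are not independent.

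The starts of these genes carried letters of factors known for nuclear genes of mitochondria. RefSeq windows of 300 bases (GRCh38.p14, 250 before and 50 after the start) were read for 69 of the 78 members, and MRPL10, MRPL13, MRPL15, MRPL2, MRPL21, MRPL23, MRPL35, MRPS28 and MRPS36 were not matched. On either strand, CCGGAAG, a core bound by ETS factors such as GABP, stood in 29 of 69 windows, or 42.0%, against 10.7% of the windows of 27305 genes. AAGATGGCG, a form of the YY1 motif, stood in 18.8% against 1.85%. The core of NRF1 sites, GCATGCGC, stood in 8.70% against 3.27%, and the E-box CACGTG in 8.70% against 7.43%. None of these 4 strings contains another. The 27305 genes were not limited to those tested or expressed here. Whether other expressed genes carry these letters as often was not tested.

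The letters were also counted by call, without a test. The ETS letters stood in 8 of 21 windows of members called higher, 2 of 7 called lower and 19 of 41 not called. The YY1 letters stood in 2, 2 and 9 of them. Stretches of 150 bases, from 120 before the RefSeq start to 30 after it, are shown for the member with the largest rise and the 2 with the largest falls, plus strand, with capitals where one of the 4 strings was found.
MRPL33, chr2:27771599-27771748: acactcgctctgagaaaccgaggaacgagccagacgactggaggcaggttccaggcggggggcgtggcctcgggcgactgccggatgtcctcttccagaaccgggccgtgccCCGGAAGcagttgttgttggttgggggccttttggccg
MRPL4, chr19:10251831-10251980: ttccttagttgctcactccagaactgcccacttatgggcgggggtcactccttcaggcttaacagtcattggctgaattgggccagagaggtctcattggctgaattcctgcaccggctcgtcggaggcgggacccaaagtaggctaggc
MRPS30, chr5:44808827-44808976: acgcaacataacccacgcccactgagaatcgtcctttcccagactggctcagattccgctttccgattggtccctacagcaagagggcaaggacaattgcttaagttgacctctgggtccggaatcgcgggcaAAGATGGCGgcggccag
The ETS letters began 8 bases before the start of MRPL33, the YY1 letters at base 14 of the MRPS30 transcript, and the stretch of MRPL4 held none of the 4. The same stretch of MRPL49, the next largest rise and not shown, also held none of them. Its longer window held the E-box. A match is a string of letters and not a shown site of binding.

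Many members share a start region with a gene on the other strand. For 33 of the 78, another gene started within 1000 bases on the opposite strand, in 34 pairs, of which 32 had a neighbour that was tested. Of these neighbours, 9 were called higher and 9 lower, where 19.9% of all genes tested were higher and 19.6% lower. The 9 called higher include MRPS11, itself a member, and both neighbours of MRPL32, PSMA2 and RP11-111K18.1. Both genes were called in 6 pairs, in the same direction in 2 and in opposite directions in 4. How often genes outside the members have such a neighbour, or are called together with it, was not counted. MRPL49 and FAU, which encodes a cytosolic ribosomal protein fused to a ubiquitin-like protein, both rose (FAU log2 fold change 0.20, edgeR adjusted p 0.049996), and MRPS27 and PTCD2 both fell (PTCD2 -0.55, edgeR adjusted p 0.00527). The genes of both pairs overlap in their exons, and without the strand setting of the counting their reads cannot be told apart.

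The opposite pairs were MRPS7 with GGA3, MRPL41 with PNPLA7, MRPL12 with RP13-1032I1.7 and MRPS30 with RP11-53O19.1. Exons of MRPS7 and GGA3 overlap too, so the same limit holds for their reads. The calls of MRPL41 and MRPL12 were lost in some fits that left out a library. GGA3, a sorting adaptor of the Golgi, had a log2 fold change of -0.23 (edgeR adjusted p 0.0288), and PNPLA7, a lysophospholipase, of -0.63 (edgeR adjusted p 0.00973). RP13-1032I1.7 went from 7.27 ± 0.209 to 5.45 ± 0.270 CPM and RP11-53O19.1 from 0.738 ± 0.222 to 1.33 ± 0.266 CPM. MRPL36 (called higher with the block, adjusted p 0.0472) and MRPL47 were not called, while the respiratory complex I genes that start 34 and 36 bases from them, NDUFS6 and NDUFB5, both rose, by 0.67 each (edgeR adjusted p 0.000130 and 4.37e-05). MRPS11 and MRPL46 start 34 bases apart, and MRPS11 rose by 0.32 (edgeR adjusted p 0.0111) while MRPL46 had a log2 fold change of -0.03 (edgeR adjusted p 0.835).

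**Figure D3:**
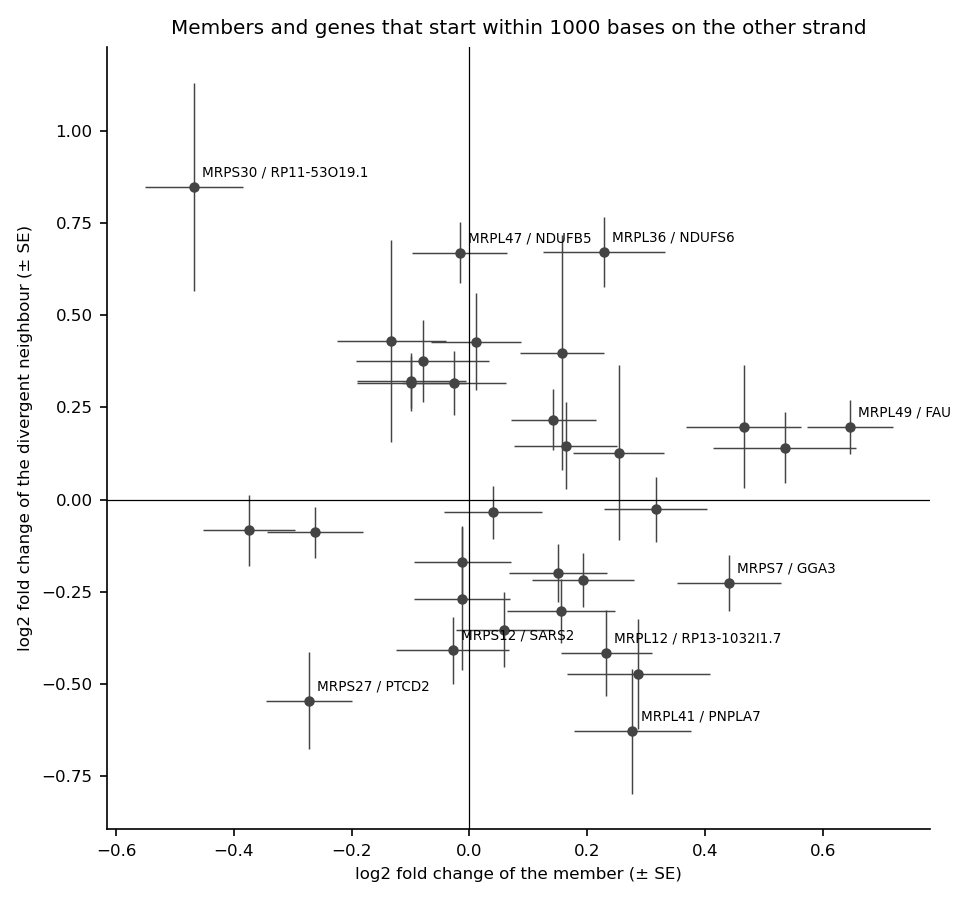
Fitted log2 fold change of the member (horizontal) and of the neighbour that starts within 1000 bases on the other strand (vertical), with standard errors, for 32 pairs, the pair of MRPS11 and MRPL46 counted once each way. Points lie on both sides of 0 on both axes, and the labelled pairs include the 6 in which both genes were called.

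The same particle holds proteins without an MRP symbol. All 5 that were listed were called, 2 higher and 3 lower, where 39.5% of all genes tested were called. DAP3, a GTP-binding protein of the small subunit, had 124, 124 and 132 CPM in shCtrl and 64.9, 75.1 and 68.2 CPM in shMORC2. With its groups far apart, it fell by 0.87 in log2 units (SE 0.08, adjusted p 3.47e-06 in edgeR), more than any member did, and its exons overlap YY1AP1 on the other strand. PTCD3, of the small subunit, and GADD45GIP1, of the large one, fell by 0.43 and 0.37 on that scale. CHCHD1 rose from 62.0 ± 5.42 to 92.0 ± 3.27 CPM (log2 fold change 0.57, edgeR adjusted p 0.000136) and AURKAIP1 from 92.9 ± 7.63 to 119 ± 7.96 CPM (0.35), both of the small subunit.

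The ribosomal RNAs of the particle, read here from libraries of polyadenylated RNA, moved apart. MT-RNR2, of the large subunit, fell by 0.85 on the log2 scale (edgeR adjusted p 5.41e-05). MT-RNR1, of the small subunit, stood at 360 ± 27.4 and 448 ± 64.5 CPM (log2 fold change 0.31, edgeR adjusted p 0.0235), a call lost without shCtrl replicate 1 (0.25), shCtrl replicate 2 (0.32) or shMORC2 replicate 2 (0.19).

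Genes that build and serve the mitoribosome were read from 4 further lists. The share called, beside 39.5% of all genes tested, was 34.5% of the assembly factors, 38.9% of the translation factors, 47.4% of the synthetases and 66.7% of the regulators. Of 29 genes listed as assembly factors, 4 were called higher and 6 lower, with a median log2 fold change of -0.08. With the block, 7 were called higher and 8 lower. RPUSD4, a pseudouridine synthase acting on the large ribosomal RNA, rose from 27.05 ± 2.22 to 65.5 ± 5.42 CPM (log2 fold change 1.28, edgeR adjusted p 6.57e-07), with exons of FAM118B on the other strand. MTERF4, which brings a methyltransferase to the large subunit, fell from 46.02 ± 2.59 to 28.97 ± 1.33 CPM (log2 fold change -0.67, edgeR adjusted p 3.52e-05). MPV17L2 and YBEY also rose, as did LYRM1, whose place among assembly factors is uncertain. MRM1, NOA1, METTL15, GTPBP10 and GRSF1 also fell.

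Of 18 translation factors and related proteins, 7 were called lower and none higher in edgeR's test, with a median log2 fold change of -0.17. The fit with the block called 1 higher and 9 lower. At an unadjusted p under 0.05, 1 was higher in edgeR, and neither DESeq2 nor limma called any of the 18 higher. PDF, the deformylase of newly made mitochondrial proteins, had the largest fall, from 14.5 ± 1.63 to 9.44 ± 1.32 CPM (log2 fold change -0.62, edgeR adjusted p 0.00163). MTIF2, TUFM and TSFM, which serve initiation and elongation, fell by 0.35, 0.32 and 0.22 on the log2 scale, and TSFM was not called in DESeq2 (adjusted p 0.0650). LRPPRC, GUF1 and OXA1L, the insertase to which the mitoribosome docks, fell by 0.44, 0.43 and 0.40. Of 19 genes listed as mitochondrial aminoacyl-tRNA synthetases, 8 fell and 1 rose, with a median of -0.25. The list held GARS, which fell by 0.51, and KARS, which was not called. How much of their counts served mitochondrial enzymes was not determined. MARS2 fell by 0.99 (edgeR adjusted p 1.54e-05), from 13.9 ± 0.459 to 6.97 ± 0.639 CPM.

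Of 15 regulators of mitochondrial transcription and biogenesis, 10 were called lower and none higher in edgeR's test, with a median log2 fold change of -0.33. Without shMORC2 replicate 3, 6 were called. The number higher was 0 also at an unadjusted p under 0.05 in edgeR, in DESeq2 and in limma, which tested 13 of the 15. MYC, a transcription factor whose targets include genes of ribosome production, fell from 416 ± 40.7 to 213 ± 14.7 CPM (log2 fold change -0.97, edgeR adjusted p 3.47e-06). GABPB1 and GABPB2, subunits of the ETS factor GABP, and YY1, whose letters were counted in the windows above, fell by 0.25, 0.33 and 0.25 on the log2 scale, and GABPB1 was not called in DESeq2 (adjusted p 0.0682). GABPA, the subunit of GABP that binds DNA, was not called (log2 fold change 0.15, edgeR adjusted p 0.173), nor was NRF1 (0.01, edgeR adjusted p 0.959). TFAM, TFB2M and POLRMT, which transcribe the mitochondrial genome, fell by 0.43, 0.70 and 0.52. Beside these lists, the 78 members had 24 called higher, and the difference between the lists was not tested.

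**Figure D4:**
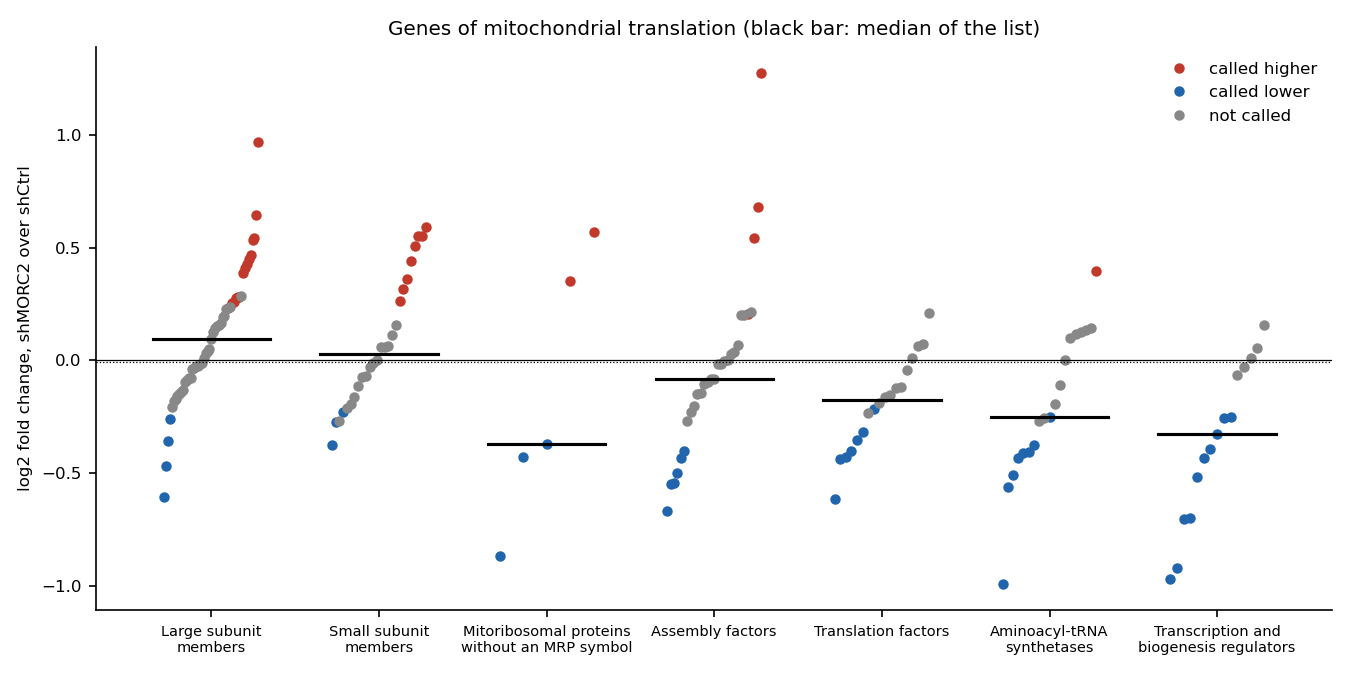
Fitted log2 fold change of each gene in the large and small subunit members and in the 5 further lists, coloured by the call, with the median of each list as a bar. The medians run from 0.10 for large subunit members to -0.37 for the 5 mitoribosomal proteins without an MRP symbol.

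Splicing of the members was read from the deposited table of exon events, which lists 1449 events in 1181 genes and names its sets of 3 libraries only group 1 and group 2. No direction of knockdown can be given for them. The events were listed by the authors' comparison of these same libraries, so the separation of groups is a description without a test. Of the 78 members, 7 had 9 listed events, 4 of a skipped exon and 5 of exons listed as mutually exclusive, and in all 5 of these both exons are consecutive in the main GENCODE transcript. A transcript that holds both exons is neither of the forms that such an event compares. Of all 1449 events, 526 were listed as mutually exclusive. The 1181 genes with an event stand beside 56303 genes in the count table, 21005 of them tested. MRPL48 was the only one of the 7 genes called for its count, and with the replicate block MRPS35 was also called, higher (adjusted p 0.0281), and MRPS31, lower (adjusted p 0.0226).

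Both skipped exons of MRPS18C are given, since the 2 events were counted against the same junction of exon 2 to exon 5, which leaves out exons 3 and 4. Their bases in GRCh38, plus strand, carry the last 3 bases of the exon in capitals, and both are flanked by AG before and GT after.
MRPS18C exon 3, chr4:83458346-83458429: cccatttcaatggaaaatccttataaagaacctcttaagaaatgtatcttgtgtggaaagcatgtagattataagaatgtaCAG
MRPS18C exon 4, chr4:83459740-83459797: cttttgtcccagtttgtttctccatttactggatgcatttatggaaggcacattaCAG
Exon 3 has 84 bases, a whole number of codons, and exon 4 has 58, which leaves a remainder of 1. The inclusion level of exon 4, the share of the including form after scaling for its length, was 0.811, 0.776 and 0.781 in group 1 and 0.947, 0.912 and 0.895 in group 2, on 187 to 276 reads per library. The groups did not overlap. For exon 3 it was 0.599, 0.412 and 0.463 in group 1 and 0.806, 0.720 and 0.586 in group 2, on 55 to 99 reads, and the groups overlapped. The junction of exon 2 to exon 5 had 26, 46 and 38 reads in group 1 and 7, 13 and 18 in group 2.

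MRPS10, of the small subunit, was listed for exons 5 and 6, with levels of 0.240, 0.274 and 0.263 in group 1 and 0.417, 0.448 and 0.396 in group 2, on 297 to 349 reads. MRPL48 was listed for exons 2 and 3, at 0.625 to 0.674 in group 1 and 0.716 to 0.784 in group 2, and for exons 6 and 7, at 0.143 to 0.153 and 0.242 to 0.321. In these 3 events the level was lower in each library of group 1. For exons 2 and 3 of MRPL39 it was 0.494 to 0.551 in group 1 and 0.374 to 0.438 in group 2. Which exon of a pair each level counts was not determined, so these directions cannot be compared between genes. The exons 2 and 3 of MRPS31 had 0.428 to 0.507 and 0.614 to 0.641, and copies of this gene elsewhere in the genome carry reads of their own. The events of MRPS15 and MRPS35 rested on 9 to 21 and 1 to 5 reads per library.

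**Figure D5:**
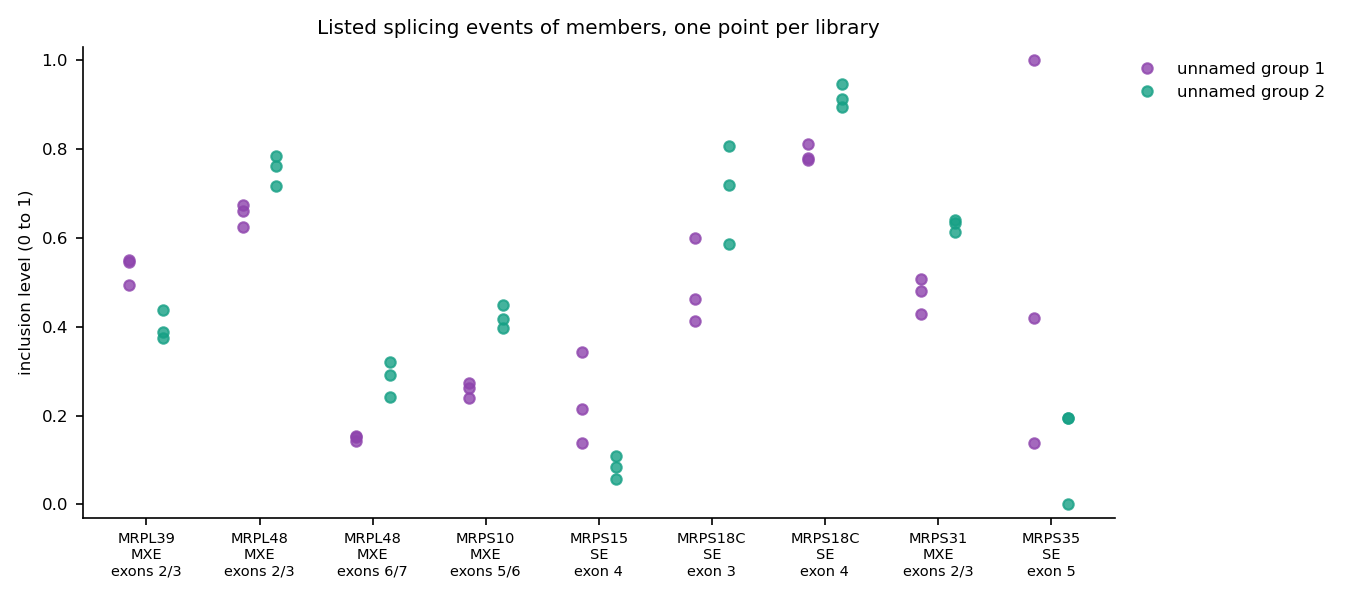
Inclusion level, from 0 to 1, of the 9 listed events in 7 members, 1 point per library, for the unnamed groups 1 and 2 of 3 libraries each (SE, skipped exon; MXE, exons listed as mutually exclusive). The groups lie apart in 7 events and overlap for exon 3 of MRPS18C and for MRPS35, which had 1 to 5 reads per library. How many of all 1449 listed events have groups that lie apart was not counted.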

How the data were processed

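RNA of 6 SW480 libraries, 3 shCtrl and 3 shMORC2, was sequenced after selection for poly(A), with a stranded kit that tags molecules with identifiers. The authors deposited raw counts per gene symbol and RPKM values, which equal these counts divided by exon length and library total, and a table of splicing events whose inclusion levels are fractions from 0 to 1. The deposited tables also hold the authors' p-values and differences for the events, which were not used. The submitters' processing notes name Trimmomatic 0.36, STAR 2.5.3a, featureCounts, Subread 1.5.1, edgeR 3.12.1 and GRCh38. The strand setting, the treatment of reads with several positions and whether identifiers were collapsed are not given in the sources used here.

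Counts of all genes passing filterByExpr were scaled by TMM and fitted under R 4.3.3 with edgeR 4.0.16 (quasi-likelihood test, group as sole term), and p-values were adjusted by Benjamini-Hochberg over 21005 genes. The standard error is the size of the log2 fold change divided by the square root of F. Each gene was called at an adjusted p under 0.05. The labels do not say whether replicates were separate cultures, while the paper describes them as independent replicate experiments. How these were set up is not given. The p-values thus measure only the spread between these samples, which may be partly technical. The 6 pairs of libraries within groups differed by more than sampling noise (chi-square per degree of freedom 6.83 to 23.9). Libraries of the same number deviated together from their group means (correlations 0.215, 0.111 and 0.102). From these values alone, the numbers were taken to pair the libraries in the fit with the replicate block. The main fit leaves this pairing out, so calls with the block are given beside it.

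The members, lists and alternatives were chosen with earlier results of these data known. The rule for named genes took MORC2, the 10 highest and 10 lowest fold changes among called members, the 3 members with the highest RPKM, members with a known role or place, both mitochondrial ribosomal RNAs, the largest called change in each direction of each list, and divergent neighbours of these. Other called genes are named to complete a count, and 1 gene that the rule names is not reported here. Alternatives were DESeq2 1.42.0, 2 other scalings, 2 other filters, the replicate block, limma 3.58.1 on log2(RPKM + 1) and log2(RPKM + 0.1), scaling without mitochondrial and ribosomal DNA genes, a minimum size of 0.5, and leaving out each library. The test was checked on simulated data of 20669 genes tested. It recovered 48.0% of 98 changes of 0.5 and 78.5% of 93 changes of 1 in log2 size, and made 14 false calls. Changes of 0.5 or less can thus be missed.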

Additional observations from a re-analysis of the deposited data

How the results depend on the processing

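No called member changed sign under any alternative, and DESeq2 called the same 31. The largest shift came from asking for a log2 fold change of at least 0.5 in size, which left 4707 of all genes and 9 members (8 higher and 1 lower), of which 5 were in the large and 4 in the small subunit and 8 of bacterial type. It left 2 of the mitoribosomal proteins without an MRP symbol, 1 translation factor, 3 synthetases and 5 biogenesis regulators. With the replicate block 29 members were called higher and 16 lower. Beyond the values given with the results, the block changed no other call of a gene named by the rule.

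Leaving out each library in turn gave 20 to 30 members called, 14 to 25 higher and 5 to 9 lower, beside 29.0% to 39.2% of all genes. It gave 11 to 19 calls in the large subunit, 8 to 11 in the small subunit, 12 to 17 among bacterial-type members and 6 to 10 among the regulators. The median of the members ran from 0.02 to 0.11. Among members not called, MRPS12 ran from -0.11 to 0.037, above 0 without shCtrl replicate 3 (0.031) or shMORC2 replicate 1, and MRPS18C from -0.072 to 0.058, above 0 without shMORC2 replicate 1. The cause was not tested.

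The lowest count of a member in any library was 264. With 3 libraries per group, a member that was not called may still differ. Exons of 29 members overlap a gene on the other strand and those of 15 a gene on the same strand.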

Other observations

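Pseudogene copies of the members were counted as genes of their own. The table held 73 symbols of pseudogenes of 34 members, 51 of them at 0 counts in all 6 libraries and 4 of them tested. The copies of MRPS31 summed to 188% of the counts of MRPS31 itself. MRPS31P5 and MRPS31P4 were called lower (log2 fold change -0.39 and -0.47, edgeR adjusted p 0.0196 and 0.00666), and MRPS31 had a log2 fold change of -0.27 (edgeR adjusted p 0.0645) and was called lower with the replicate block (adjusted p 0.0226). MRPS18AP1, whose counts were 5.03% of those of MRPS18A, was called higher (log2 fold change 0.74, edgeR adjusted p 0.00191). The copies of every other member summed to at most 1.36% of its counts. How reads were shared between a gene and its copies was not tested.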
